A study of Xenopus laevis with 39 samples.

Results

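The response of the larval nose to a cut of the olfactory nerve was set against the response of the olfactory bulb of the African clawed frog Xenopus laevis, 1 week after the cut, gene by gene. The comparison used 12 of the 39 RNA sequencing libraries of the study, 3 in each of 4 groups: whole noses of control larvae, whole noses 1 week after transection, whole bulbs of control larvae and whole bulbs 1 week after transection. The titles name all 4 groups as larvae. A further field gives a stage before metamorphosis for the other groups, but for the 1-week noses it carries only the time after transection. No group is labelled as sham-operated, the labels name no strain, age or sex, and they do not say whether a library is 1 animal or a pool, so the tests rest on the spread among libraries alone, which may be technical. Members were the 12 libraries of the interaction, the log2 change of the nose minus the log2 change of the bulb, fitted with all 4 groups in 1 model. A gene was called at a Benjamini-Hochberg adjusted p under 0.05 in the quasi-likelihood test of edgeR. It was placed in the class "nose only" or "bulb only" when it was called in that tissue, not in the other, and the interaction itself was called. It was placed in "both" when both tissues were called with 1 sign, and in "opposite" when they were called with different signs.

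Olfactory receptor neurons sit in the nasal epithelium and send their axons through the olfactory nerve to the bulb, where they contact mitral cells and local interneurons. Cutting the nerve severs these axons, and it is known that mature receptor neurons then die, phagocytes clear the debris, and basal stem cells of the epithelium divide to replace the lost neurons. The bulb loses its sensory input and its incoming axon terminals, and in frog larvae its ventricular lining holds radial glia and dividing precursors.

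Depth was 42.76 to 105.1 M counted reads per library (M, 1e6), at a median of 68.5 M. Within groups, libraries had Spearman correlations of at least 0.981. Tissue markers matched the labels with some exceptions. The forebrain factors neurod2.S and neurod6.L reached at most 0.25 and 0.0906 counts per M counted reads (CPM) in any nose against at least 47.6 and 58.2 CPM in every bulb. The basal epithelial collagen col17a1.L was at 349.5 to 483 CPM in noses and 0.165 to 5.42 CPM in bulbs. The nose marker gng13.L overlapped between tissues, at 15.85 to 184 CPM in noses and 15.89 to 20.53 CPM in bulbs, as did gng13.S and the bulb marker gad1.2.L. Its homeolog gad1.2.S went the other way, at 2.55 to 4.12 CPM in noses and 0.0359 to 0.114 CPM in bulbs. Control nose library 1 stood apart in muscle transcripts, with 4932 CPM summed over 66 muscle genes against 443 and 394 CPM in the other control noses and 398 to 695 CPM at 1 week. In immediate early genes it was the low one, at 585 CPM against 2259.8 and 2717 CPM in the other control noses and 812 to 996 CPM at 1 week. Where leaving out 1 library ended a call stated below, this is said beside it. The endings .L and .S mark the copies (homeologs) of a gene on the long and short chromosomes of each pair in this species, and reads shared by near-identical copies were not examined.

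Both tissues responded in about as many genes, and most genes called in both had the same sign. In the nose, of 33668 genes, 7199 were called higher and 8879 lower (47.8 percent called). In the bulb 9661 were called higher and 8146 lower (52.9 percent). The interaction was called in 11955 genes (35.5 percent), 5052 with the nose change above the bulb change and 6903 with it below. When libraries were scaled within each tissue instead of across both, that split became 6450 above and 5853 below, and without control nose library 2 it was 6204 above and 5761 below, so the majority among interaction calls is not fixed. Scaling within each tissue also moved the median interaction of all genes from -0.10 to -0.0042 (log2). In the bulb it gave 8670 genes higher and 9089 lower. Lower calls also led in the bulb with homeologs summed, and without control nose library 1 or 2 or any 1-week nose. The majority among bulb calls is thus not fixed either. Without control nose library 1, 6206 genes rose and 9156 fell in the nose and 8857 rose and 9818 fell in the bulb. In that setting 6046 interactions were called with the nose above and 6933 below, the background of list counts without that library.

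Of 9959 genes called in both tissues, 8221 (82.5 percent) had the same sign and 1738 had opposite signs. The shared genes were 4269 higher and 3952 lower (12.7 and 11.7 percent of genes tested). A change in the nose alone was found for 1126 higher and 2175 lower genes (3.34 and 6.46 percent), and one in the bulb alone for 2274 higher and 2077 lower genes (6.75 and 6.17 percent). Opposite changes were made up of 586 genes higher in the nose and lower in the bulb (1.74 percent) and 1152 genes lower in the nose and higher in the bulb (3.42 percent). Another 6315 genes were called in 1 tissue without a called interaction, so their tissues could not be told apart. With libraries scaled within each tissue, 858 opposite genes had the nose higher and 870 had it lower. Without control nose library 2 these were 783 and 869. Scaling within each tissue also gave 1882 higher and 2656 lower genes in the bulb alone. The balance of directions in the opposite and bulb-only classes is thus not fixed. Across genes, which are not independent replicates, the log2 changes of nose and bulb had a Pearson correlation of 0.32, and of 0.52 over the 22208 genes with at least 1 CPM in both tissues.

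**Figure D1:**
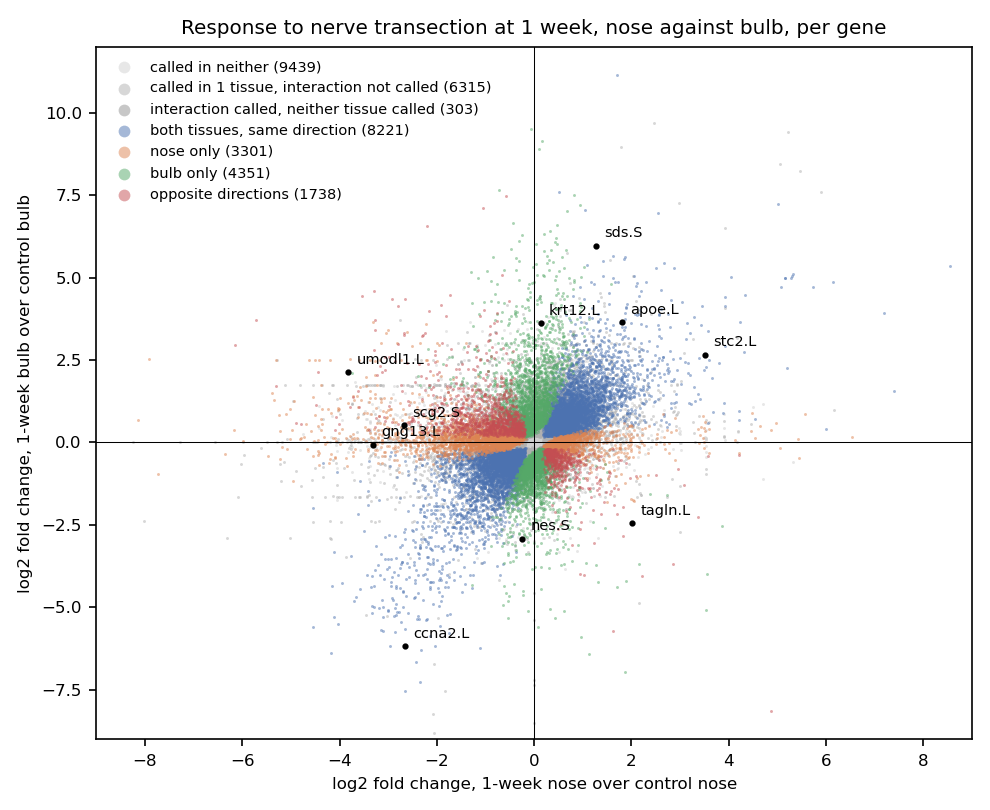
Each point is 1 of the 33668 genes tested, with the log2 fold change of the nose on the x axis and that of the bulb on the y axis, coloured by class with the number of genes in the key. The 8221 genes called in both tissues with the same sign fill the lower left and upper right, and the labelled genes are described in the text.

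Genes of sensory neurons were among those that fell in the nose only. The G protein subunit gng13.L, which couples odorant and taste receptors to their effectors, was at 147, 184 and 184 CPM in control noses and 19.2, 16.7 and 15.8 CPM in 1-week noses. Bulb levels were 17.0, 20.5 and 20.3 CPM in control bulbs and 19.8, 19.5 and 15.9 CPM in 1-week bulbs. The 1-week noses thus lay far below the control noses and at the level of the bulbs, whose groups overlapped. Over all genes tested, groups did not overlap in 51.5 percent in the nose and 68.6 percent in the bulb. For genes named by class, non-overlap in each tissue of the class was a condition of the naming, so it adds no support for them. The log2 fold change was -3.32 ± 0.13 in the nose (adjusted p = 1.67e-09) and -0.063 ± 0.12 in the bulb (0.681, not called), and the interaction was -3.25 ± 0.17 (4.98e-08, edgeR, n = 3 per group in every such value). Its homeolog gng13.S gave an interaction of -3.15 ± 0.12 (4.21e-09). In bulk tissue, fewer cells of a type and less RNA per cell cannot be told apart.

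Other genes, sensory ones among them, fell from high nose levels with bulb levels near the limit of counting. The calcium-binding protein gene s100z.L, a marker of sensory neurons in fish noses, stood at 519.7, 374 and 404 CPM in control noses and 28.5, 28.8 and 23.3 CPM in 1-week noses. The vomeronasal receptor gene vn2r1p.L stood at 86.7, 160.0 and 134 CPM in control noses and 3.95, 4.79 and 3.73 CPM in 1-week noses. The membrane protease gene tmprss6.S stood at 224, 355 and 328 CPM in control noses and 22.1, 27.7 and 24.0 CPM in 1-week noses. All 3 genes were under 2 CPM in every bulb, and the nose changed by -4.01 ± 0.32, -4.93 ± 0.25 and -3.62 ± 0.26 log2. The channel subunit cnga2.L, which carries the odour-evoked current in ciliated receptor neurons, fell by 2.53 ± 0.19 log2 in the nose, while its bulb call, at under 0.5 CPM, was lost without any 1 library except control nose library 3, control bulb library 3 and 1-week bulb libraries 1 and 3 (adjusted p up to 0.141). That bulb call was also lost with the DESeq2 test, limma-voom, scaling within each tissue, summed homeologs and the model of 24 libraries.

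Of the 36 genes of mature ciliated receptor neurons tested, 27 fell and 1 rose in the nose (background 26.4 and 21.4 percent of all genes), while 8 fell and 13 rose in the bulb (background 24.2 and 28.7 percent). The interaction was called for 31 with the nose below (background 20.5 percent) and 2 with the nose above (background 15.0 percent). Their median log2 change was -1.18 in the nose and 0.16 in the bulb, against -0.049 and 0.094 over all genes. Of the 28 genes of vomeronasal and microvillous neurons, 19 fell and 1 rose in the nose, with 7 and 7 in the bulb and 18 interactions called with the nose below. Summed over the ciliated neuron list, control noses held 2319 to 2779.7 CPM and 1-week noses 1013 to 1075 CPM, which do not overlap.

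Genes of the synapse, which neurons of both tissues use, also fell in the nose and mostly not in the bulb. The vesicle GTPase gene rab3a.S, which acts in transmitter release, was at 44.0, 61.3 and 61.7 CPM in control noses and 10.9, 11.4 and 10.9 CPM in 1-week noses. Bulb levels were 196, 207 and 203 CPM in control bulbs and 199, 215 and 192 CPM in 1-week bulbs. All 3 transected noses were below the lowest control nose and bulb levels overlapped (-2.33 ± 0.12 and -0.0006 ± 0.11 log2, the second not called), with an interaction of -2.33 ± 0.16 (3.01e-07). The synaptic vesicle protein gene syp.L fell by 1.87 ± 0.092 log2 in the nose, with 0.11 ± 0.089 in the bulb (not called, interaction adjusted p = 2.27e-07). The taurine transporter gene slc6a6.S had similar levels in control noses and bulbs, at 18.9, 36.0 and 34.5 CPM in control noses and 1.30, 1.83 and 1.54 CPM in 1-week noses. Bulb levels were 20.7, 19.8 and 24.4 CPM in control bulbs and 22.8, 23.4 and 19.7 CPM in 1-week bulbs. It fell by 4.26 ± 0.24 log2 in the nose, with 0.023 ± 0.20 in the bulb (not called, interaction adjusted p = 8.58e-07). The glycolytic enzyme gene aldoc.L, found in neurons and astroglia, fell by 2.67 ± 0.12 in the nose and the secreted factor gene fam19a2-like.S by 3.73 ± 0.26, with -0.047 ± 0.12 and 0.26 ± 0.20 in the bulb, neither called.

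Of 99 synaptic and transmitter genes tested, 60 fell and 5 rose in the nose, whereas 10 fell and 32 rose in the bulb (all genes 26.4 and 21.4 percent in the nose, 24.2 and 28.7 percent in the bulb). The share that rose in the bulb was near that of all genes. In 63 of them the nose change was below the bulb change by the interaction test and in 2 above (all genes 20.5 and 15.0 percent). By class, 32 were lower in the nose only and 17 were lower in the nose and higher in the bulb. With libraries scaled within each tissue, 29 members rose and 11 fell in the bulb, and 59 interactions were called with the nose below. Of the 44 immediate early and activity genes, 13 fell in the nose, 3 fell and 6 rose in the bulb, and 9 interactions were called with the nose below. The share that fell in the nose and the share of interactions were near those of all genes (26.4 and 20.5 percent). Control nose library 1 was low in that list, and without it 31 members fell in the nose, with 33 interactions called with the nose below. The counts of this list thus depend on which control noses are kept.

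**Figure D2:**
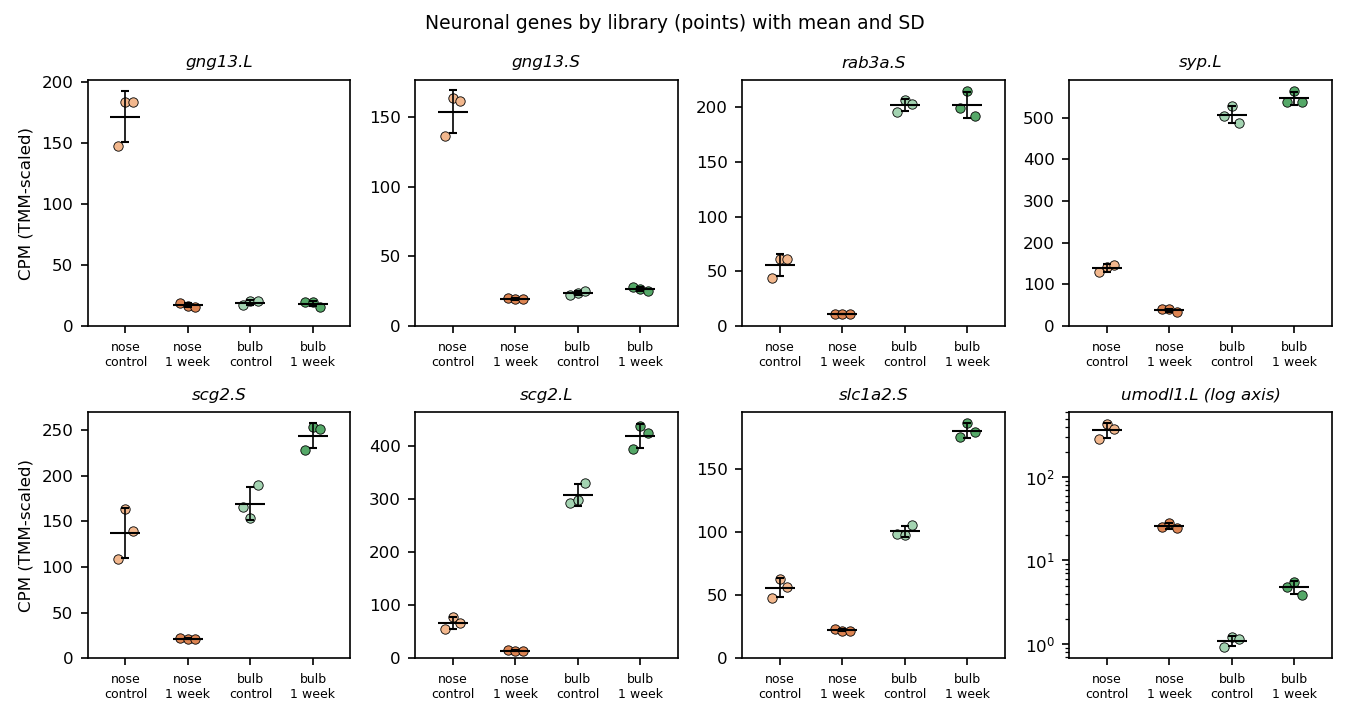
Levels of 8 neuronal and glial genes in CPM after scaling by the trimmed mean of M-values (TMM), 1 point per library, with the mean and the SD of 3 libraries as line and bar, and with a log axis for umodl1.L. In 7 of the 8 panels the 1-week noses lie under all other groups or beside the bulbs, and for umodl1.L they lie between control noses and bulbs.

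A secretogranin and a glial transporter gene were called with opposite signs. The secretogranin gene scg2.S, whose product packs neuropeptides into dense-core vesicles, was at 109, 164 and 139.9 CPM in control noses and 22.1, 21.6 and 21.0 CPM in 1-week noses. Bulb levels were 165, 154 and 189.6 CPM in control bulbs and 228, 253 and 251 CPM in 1-week bulbs. It dropped in all 3 transected noses and lay above every control in all 3 transected bulbs, with changes of -2.67 ± 0.13 (adjusted p = 8.62e-09) and 0.53 ± 0.12 log2 (0.0028). The interaction was -3.20 ± 0.18 (9.36e-08), and the homeolog scg2.L gave -2.68 ± 0.17 (1.92e-07). In the model of 24 libraries the bulb call was lost for both, at 0.54 log2 (adjusted p = 0.0603) for scg2.S and 0.46 (0.0988) for scg2.L. The astroglial glutamate transporter gene slc1a2.S was at 47.8, 62.7 and 56.6 CPM in control noses and 22.9, 22.0 and 21.7 CPM in 1-week noses. Bulb levels were 98.3, 97.2 and 106 CPM in control bulbs and 175, 186 and 179 CPM in 1-week bulbs. Groups did not overlap in either tissue, and the interaction was -2.17 ± 0.13 (1.17e-07), but its homeolog slc1a2.L changed by -1.79 ± 0.15 in the nose and -0.38 ± 0.14 in the bulb. That bulb call was lost when control bulb library 2 or 3 or any 1-week bulb was left out, and the homeologs summed gave 0.60 in the bulb.

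The uromodulin-like gene umodl1.L, made by olfactory and vomeronasal neurons in mammals, was at 290.5, 436 and 376 CPM in control noses and 25.0, 28.4 and 24.7 CPM in 1-week noses. Bulb levels were 0.911, 1.20 and 1.13 CPM in control bulbs and 4.81, 5.59 and 3.90 CPM in 1-week bulbs. Its fall in the nose (-3.82 ± 0.16 log2) came with a rise in the bulb (2.14 ± 0.18) from a level under 2 CPM. The phosphodiesterase gene pde1c.L, whose product degrades cyclic nucleotides in receptor neuron cilia, changed by -1.50 ± 0.085 and 0.73 ± 0.083. Its control levels were 81.7 ± 7.68 CPM in the nose and 28.0 ± 1.45 CPM in the bulb (mean ± SD, n = 3). The kinase gene stk32a.L was at 117, 153 and 148 CPM in control noses and 30.0, 33.7 and 30.0 CPM in 1-week noses. Bulb levels were 3.95, 4.58 and 5.41 CPM in control bulbs and 14.7, 15.7 and 15.8 CPM in 1-week bulbs, and transected bulbs reached 49.3 percent of the transected noses. The retinol-binding protein gene rbp4l.S changed by -2.52 ± 0.18 in the nose and 0.72 ± 0.15 in the bulb, from control levels of 8.24 ± 2.31 and 13.5 ± 0.241 CPM (mean ± SD). The plasminogen-binding lectin gene clec3b.L and the epidermal transglutaminase gene tgm5.L fell in the nose (-0.76 ± 0.23 and -0.82 ± 0.18) and rose in the bulb (3.68 ± 0.28 and 3.61 ± 0.22). In the bulb clec3b.L was at 0.506, 0.565 and 0.946 CPM in control bulbs and 7.22, 11.3 and 7.14 CPM in 1-week bulbs, and tgm5.L at 0.848, 0.676 and 1.34 CPM in control bulbs and 11.9, 11.6 and 11.0 CPM in 1-week bulbs.

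The smooth muscle genes tagln and acta2 showed the reverse pairing, higher in the nose and lower in the bulb. Transgelin tagln.L, an actin-binding protein of smooth muscle and contractile fibroblasts, was at 6.36, 4.62 and 8.62 CPM in control noses and 17.5, 25.3 and 36.4 CPM in 1-week noses. Bulb levels were 3.96, 3.30 and 3.34 CPM in control bulbs and 0.789, 0.619 and 0.481 CPM in 1-week bulbs. Every transected nose was above and every transected bulb below all its controls, with changes of 2.02 ± 0.27 (5.99e-05) and -2.45 ± 0.31 log2 (3.10e-05) and an interaction of 4.46 ± 0.41 (6.82e-06). Smooth muscle actin acta2.S was at 15.0, 9.34 and 15.0 CPM in control noses and 25.4, 30.7 and 45.0 CPM in 1-week noses. Bulb levels were 10.8, 11.8 and 9.53 CPM in control bulbs and 3.13, 2.30 and 1.66 CPM in 1-week bulbs. The interaction was 3.53 ± 0.37 for acta2.S (2.96e-05), 3.03 ± 0.39 for acta2.L (0.000162) and 3.87 ± 0.47 for tagln.S (5.28e-05). The smooth muscle myosin gene myh11.S fell by 2.06 ± 0.15 in the bulb, with 0.19 ± 0.14 in the nose (not called). Its homeolog myh11.L changed by -0.46 ± 0.16 and -1.18 ± 0.16, and its nose call was lost without control nose library 1 or 1-week nose library 3. The 66 muscle genes as a list were dominated by skeletal genes. Of them 5 rose and 10 fell in the nose (all genes 21.4 and 26.4 percent). In the bulb 3 rose and 10 fell (28.7 and 24.2 percent). Interactions were called in 9 with the nose above and 6 below (15.0 and 20.5 percent). All these shares were below those of all genes. The nose median was -2.05 log2, and it was -0.022 without the muscle-rich control nose library 1, where 7 rose and 4 fell in the nose.

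Single genes of lipid transfer, glycolysis and blood vessels had that direction too. The phospholipid transfer protein gene pltp.L was at 6.33, 7.71 and 8.54 CPM in control noses and 55, 57.1 and 63.9 CPM in 1-week noses. Bulb levels were 56.0, 66.6 and 83.3 CPM in control bulbs and 39.1, 38.9 and 40.7 CPM in 1-week bulbs. It rose by 2.96 ± 0.14 log2 in the nose and fell by 0.79 ± 0.13 in the bulb, whereas its homeolog pltp.S rose in both (2.82 ± 0.084 and 1.20 ± 0.077), and with the homeologs summed the bulb value turned to 0.57. The glycolysis regulator pfkfb3.S was at 8.86, 6.74 and 11.2 CPM in control noses and 21.0, 36.7 and 37.6 CPM in 1-week noses. Bulb levels were 21.1, 22.6 and 17.1 CPM in control bulbs and 5.31, 4.90 and 5.31 CPM in 1-week bulbs. The changes were 1.83 ± 0.22 in the nose and -1.97 ± 0.23 in the bulb (3.34e-06 for the interaction). The gene hpd-like.1.L, named for an enzyme of tyrosine catabolism, changed by 1.35 ± 0.11 and -1.12 ± 0.11. The endothelial guidance receptor robo4.S changed by 0.58 ± 0.13 in the nose and -0.65 ± 0.12 in the bulb. The receptor for vascular endothelial growth factor kdr.S changed by 1.14 ± 0.22 and -0.74 ± 0.21. The bulb call of kdr.S was lost in the model of 24 libraries (-0.73, adjusted p = 0.14) and with the homeologs summed (-0.25, 0.144). Of 64 endothelial genes, 15 rose and 4 fell in the nose, 12 rose and 20 fell in the bulb, and 12 interactions were called with the nose above and 2 below. Over all genes, 21.4 percent rose and 26.4 percent fell in the nose and 28.7 and 24.2 percent in the bulb, so the share that rose in the nose was near that of all genes. Interactions were called in 15.0 percent of all genes with the nose above and 20.5 percent with it below. The endothelial share with the nose above was thus also near that of all genes. Without control nose library 1, 13 endothelial genes rose and 9 fell in the nose and 7 rose and 22 fell in the bulb.

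Genes of basal cells and progenitors had most of their called interactions with the bulb below the nose. The receptor gene notch1.S, of the pathway that holds progenitors undifferentiated, fell by 1.54 ± 0.10 in the bulb, with 0.11 ± 0.10 in the nose (not called). The 69 genes of basal cells and progenitors were 16 higher and 23 lower in the nose and 11 higher and 40 lower in the bulb (all genes 21.4 and 26.4 percent in the nose, 28.7 and 24.2 percent in the bulb), with nose shares not far from those of all genes. In this list 30 interactions were called with the nose above and 8 below (all genes 15.0 and 20.5 percent). Without control nose library 1, 12 rose and 26 fell in the nose. Their summed level still fell in both tissues. It was 6265 to 7987 CPM in control and 4242 to 4376 CPM in 1-week noses, and 2207 to 2512 and 1379 to 1423 CPM in the bulbs.

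Genes that rose in the nose alone were fewer, and mpp2.S, rbp4.S and pah.S among them started from low nose levels. The membrane scaffold gene mpp2.S was at 0.834, 1.33 and 0.789 CPM in control noses and 14.2, 16.0 and 22.4 CPM in 1-week noses. Bulb levels were 116, 124 and 129.5 CPM in control bulbs and 129, 135 and 126 CPM in 1-week bulbs. All 3 transected noses were above the controls and below every bulb, and bulb groups overlapped, with 4.13 ± 0.20 log2 in the nose (1.47e-08) and 0.082 ± 0.16 in the bulb (0.688). The retinol carrier rbp4.S was at 2.22, 3.40 and 3.30 CPM in control noses and 16.4, 16.9 and 23.8 CPM in 1-week noses. Bulb levels were 219, 201 and 205 CPM in control bulbs and 212, 218 and 268 CPM in 1-week bulbs. Phenylalanine hydroxylase, encoded by pah.S, was at 2.89, 5.61 and 4.17 CPM in control noses and 22.8, 28.6 and 33.5 CPM in 1-week noses. In the nose rbp4.S rose by 2.66 ± 0.17 log2 and pah.S by 2.73 ± 0.20, and the uncalled bulb values were 0.16 ± 0.15 and 0.38 ± 0.19. The carbonic anhydrase gene ca7.L rose by 2.22 ± 0.31 in the nose and mov10l1.L, a helicase of the piRNA pathway in germ cells, by 1.91 ± 0.19, with uncalled bulb values of -0.027 ± 0.32 and -0.32 ± 0.19.

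Of 47 genes of the interferon response, which primes cells against viruses, and of antigen presentation, 23 rose in the bulb only, a class that held 6.75 percent of all genes. The interferon-induced gene parp9.L was at 51.1, 54.0 and 67.0 CPM in control noses and 84.0, 71.9 and 66 CPM in 1-week noses. Bulb levels were 1.34, 2.05 and 2.38 CPM in control bulbs and 13.3, 11.9 and 9.19 CPM in 1-week bulbs. Nose groups overlapped within a high level, and every transected bulb was above every control bulb, with log2 values of 0.37 ± 0.18 in the nose (0.107) and 2.58 ± 0.20 in the bulb (6.98e-07) and an interaction of -2.21 ± 0.26 (5.36e-05). The nose value was called by limma-voom (adjusted p = 0.0358). The transducer of interferon signals irf9.L rose by 1.22 ± 0.10 in the bulb, with 0.026 ± 0.093 in the nose (not called). The antiviral gene rsad2.S was at 0.0633, 0.0463 and 0.223 CPM in control bulbs and 2.27, 2.07 and 2.17 CPM in 1-week bulbs. Nose levels were 3.94, 6.23 and 5.03 CPM in control noses and 8.16, 6.12 and 9.16 CPM in 1-week noses. Its nose value of 0.62 ± 0.27 was not called (0.0758), but was called without control nose library 2 or control bulb library 3 and by DESeq2 (adjusted p = 0.0445, 0.016 and 0.0289). Over that list 38 members rose and 3 fell in the bulb (all genes 28.7 and 24.2 percent), 6 rose and 7 fell in the nose (21.4 and 26.4 percent), and 32 interactions were called with the nose below (20.5 percent). The median log2 change was 1.26 in the bulb and 0.14 in the nose.

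Epithelial genes that belong to the nose also rose in bulbs. The keratin gene krt12.L was at 3501, 3233 and 2849 CPM in control noses and 3558, 3369.5 and 3583 CPM in 1-week noses. Bulb levels were 3.13, 4.18 and 2.83 CPM in control bulbs and 24.1, 45.1 and 56.1 CPM in 1-week bulbs. The 3 transected bulbs were all above the control bulbs (3.62 ± 0.27 log2, 4.46e-07) and held 1.19 percent of the level of the transected noses, where no change was called (0.13 ± 0.24). For the basal keratin krt15.L and the hemidesmosome collagen col17a1.L that share was 2.47 and 0.907 percent, with bulb changes of 5.08 ± 0.34 and 3.77 ± 0.36. By the same measure tgm5.L was at 50.2, clec3b.L at 90.9, umodl1.L at 18.3, parp9.L at 15.5 and irf9.L at 30.4 percent of the transected noses. These shares are not alike across genes, and the reason was not tested. The nose levels of umodl1.L, tgm5.L and clec3b.L had themselves fallen, while no nose change was called for parp9.L and irf9.L. The shares also include the level already present in control bulbs. Of 88 epithelial genes, 43 rose and 13 fell in the bulb (all genes 28.7 and 24.2 percent) and 12 rose and 33 fell in the nose (21.4 and 26.4 percent). Summed over the list, control bulbs held 766 to 810 CPM and transected bulbs 806 to 882 CPM, ranges that overlap, and noses at least 18202 CPM. The part of epithelial transcripts in the rises from low bulb levels was not tested.

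Other genes that rose in the bulb alone were enzymes, a meiotic gene and stress factors. Serine dehydratase sds.S, an amino acid catabolic enzyme of liver, was at 1.44, 1.75 and 9.73 CPM in control bulbs and 239, 258 and 302 CPM in 1-week bulbs. Nose levels were 5.66, 1.60 and 0.874 CPM in control noses and 7.93, 4.43 and 5.70 CPM in 1-week noses. Transected bulbs were above every nose library, and the bulb change was 5.97 ± 0.92 (0.000691) with an interaction of -4.70 ± 1.21 (0.0166). The meiotic chromosome gene sycp2.S was at 0.683, 0.472 and 0.302 CPM in control bulbs and 9.45, 9.69 and 8.18 CPM in 1-week bulbs, a change of 4.22 ± 0.27. The predicted kinase gene sgk494.L rose by 4.02 ± 0.37 in the bulb, with -0.11 ± 0.38 in the nose (not called). The pyrimidine salvage gene uprt.S changed by 4.32 ± 0.75 in the bulb, but with the homeologs summed the bulb value was -1.18 and the interaction 0.54, both reversed. The transcription factor genes cebpd.L and cebpd.S, of acute-phase and stress responses and singled out after their values were seen, rose by 3.83 ± 0.53 and 3.70 ± 0.55 in the bulb, with 0.45 ± 0.47 and 0.54 ± 0.49 in the nose, neither called. For cebpd.L the bulbs were at 6.58, 9.33 and 16.4 CPM in control bulbs and 142, 122 and 196 CPM in 1-week bulbs, and the control noses already ranged from 139 to 561 CPM.

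Single genes of radial glia and of thyroid signalling fell in the bulb, and their lists were mixed. Of 45 astroglia and radial glia genes, 8 rose and 19 fell in the bulb, 6 of them lower in the bulb only, and 15 rose and 10 fell in the nose. Of 64 genes of steroid, thyroid and stress responses, 22 rose and 9 fell in the bulb and 17 rose and 8 fell in the nose (17 and 15 without control nose library 1), against 28.7 and 24.2 percent of all genes in the bulb and 21.4 and 26.4 percent in the nose. The radial glia filament gene nes.S was at 61.9, 66.2 and 51.0 CPM in control bulbs and 7.11, 8.71 and 7.93 CPM in 1-week bulbs. Nose levels were 9.12, 3.37 and 4.33 CPM in control noses and 6.41, 3.33 and 4.18 CPM in 1-week noses. Transected bulbs fell to nearly the level of the noses, whose groups overlapped, with -2.92 ± 0.34 log2 in the bulb (4.54e-05) and -0.25 ± 0.35 in the nose (0.59). The homeolog nes.L fell by 2.78 ± 0.18 in the bulb and the radial glia lipid carrier fabp7.L by 1.74 ± 0.28, with uncalled nose values of -0.32 ± 0.20 and -0.36 ± 0.30. Without control nose library 2 both nose values were called (-0.49 and -0.66), and without control bulb library 1 or 2 the interaction of fabp7.L was not (adjusted p = 0.0511 and 0.0539). The thyrotropin subunit gene tshb.S, a pituitary product, was at 59.5, 52.1 and 39.7 CPM in control bulbs and 5.65, 5.37 and 6.50 CPM in 1-week bulbs, a change of -3.11 ± 0.27 (2.22e-06), against nose values under 2 CPM. The deiodinase genes dio2.L and dio2.S, whose enzyme activates thyroid hormone, fell by 1.44 ± 0.14 and 2.51 ± 0.28 in the bulb, with -0.11 ± 0.14 and 0.56 ± 0.29 in the nose, neither called.

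Genes of motile cilia, which line the brain ventricles and the nasal cavity, had most of their called interactions with the bulb below the nose. The dynein assembly gene zmynd10.L was at 5.66, 6.35 and 5.06 CPM in control bulbs and 1.03, 1.22 and 0.944 CPM in 1-week bulbs. Nose levels were 38.1, 31.8 and 40.5 CPM in control noses and 36.0, 35.7 and 38.2 CPM in 1-week noses. Bulb groups did not overlap and nose groups did, with -2.41 ± 0.13 log2 in the bulb (3.43e-08) and -0.0057 ± 0.11 in the nose (0.974). The axonemal gene tcte1.L fell by 3.39 ± 0.21 in the bulb, with -0.11 ± 0.17 in the nose (not called). The gene myb.S, a factor needed for multiciliated cells, was called in both tissues, at -1.44 ± 0.16 in the bulb and 0.88 ± 0.13 in the nose. Of 60 cilia genes, 33 fell and 11 rose in the bulb and 13 fell and 15 rose in the nose. In this list 27 interactions were called with the nose above and 7 below (all genes 15.0 and 20.5 percent). Over all genes 24.2 percent fell and 28.7 percent rose in the bulb and 26.4 and 21.4 percent in the nose, so the nose counts were near the background. The median log2 change of the cilia genes was -0.41 in the bulb and 0.028 in the nose. Their summed level, in which highly expressed members weigh most, was 5479 to 6039 CPM in control and 1863 to 2133 CPM in transected bulbs. In the noses it was 4316 to 4698 and 3714 to 3928 CPM.

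Further bulb-only falls included that of the stress factor atf4.L (-1.40 ± 0.13 in the bulb and 0.00025 ± 0.13 in the nose, not called). The glycogen-targeting subunit gene ppp1r3b.L changed by -2.79 ± 0.20, the ribosomal oxygenase gene mina.L by -2.76 ± 0.24 and oit3.L by -3.24 ± 0.40 in the bulb. Red cell genes fell in the bulb, 20 of 29 lower and 1 higher (all genes 24.2 and 28.7 percent). In the nose 6 fell and 3 rose (all genes 26.4 and 21.4 percent), both below the shares of all genes. Summed over the list, control noses held 1686 to 4605 CPM of these transcripts, the most in library 1, and transected noses 836 to 1412 CPM. The globin gene hbg2.L was at 1524, 333 and 521 CPM in control noses and 55.9, 40.3 and 41.2 CPM in 1-week noses. Bulb levels were 559, 515 and 393 CPM in control bulbs and 14.2, 12.9 and 10.1 CPM in 1-week bulbs, and every transected library was below all controls of its tissue. Control bulbs held 1638 to 2008 CPM of red cell transcripts and transected bulbs 295 to 431 CPM, so the summed red cell transcripts were lower after transection in both tissues, and their part in the other results was not tested.

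**Figure D3:**
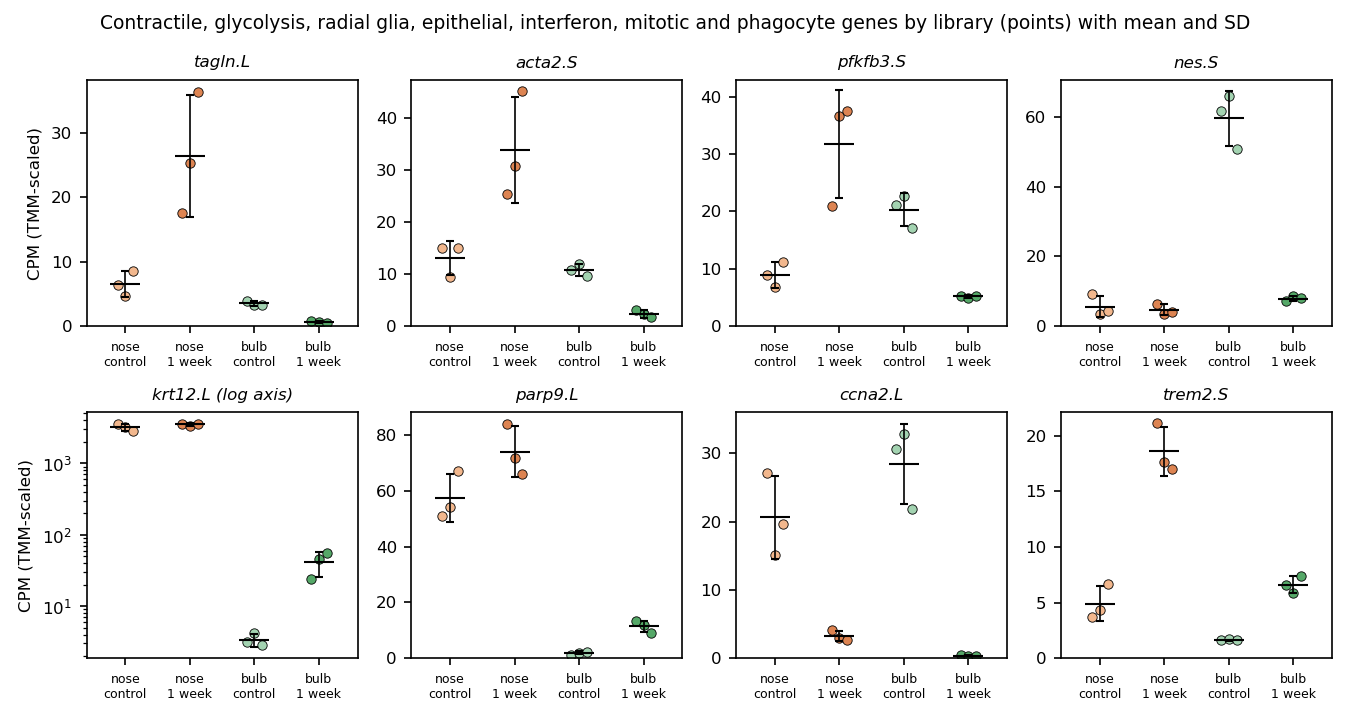
Levels of 8 genes in CPM (TMM-scaled), 1 point per library with the mean and SD of 3 libraries, with a log axis for krt12.L. The genes tagln.L, acta2.S and pfkfb3.S rise in the nose and fall in the bulb, nes.S falls and krt12.L and parp9.L rise in the bulb alone, ccna2.L falls in both and trem2.S rises in both.

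Cell division genes fell in both tissues, and most interactions of the list put the bulb lower. Cyclin A ccna2.L, which drives S phase and mitosis, was at 27.1, 15.1 and 19.7 CPM in control noses and 4.08, 3.02 and 2.70 CPM in 1-week noses. Bulb levels were 30.6, 32.9 and 21.8 CPM in control bulbs and 0.475, 0.377 and 0.267 CPM in 1-week bulbs. All transected libraries were below all controls, with changes of -2.66 ± 0.24 (2.44e-06) and -6.19 ± 0.30 (3.29e-08), and the interaction of 3.53 ± 0.37 (1.83e-05) put the bulb lower. The replication initiation gene mcm10.L changed by -1.27 ± 0.24 and -4.43 ± 0.29 (2.53e-05 for the interaction). The mitotic kinase plk1.S changed by -3.33 ± 0.24 and -5.16 ± 0.27. The mitotic kinesin genes kif11.L and kif20a.L changed by -3.34 ± 0.20 and -4.97 ± 0.22 and by -3.36 ± 0.22 and -4.39 ± 0.24. The nuclear import gene kpna2.S changed by -3.69 ± 0.23 and -4.81 ± 0.24. Of 104 cell cycle and replication genes, 93 fell in the nose and 94 in the bulb, 90 of them in both (all genes 26.4, 24.2 and 11.7 percent). In the nose 3 rose and in the bulb 2 (all genes 21.4 and 28.7 percent). The median was -1.86 log2 in the nose and -3.05 in the bulb. The interaction put the bulb lower in 60 members and the nose lower in 5 (all genes 15.0 and 20.5 percent). Control libraries varied, with mcm2.L at 35.5, 14.2 and 27.2 CPM in control noses and 9.01, 8.93 and 7.61 CPM in 1-week noses, where control nose library 2 was the lowest control.

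Cholesterol synthesis and young neuron genes also fell in both. Of 54 cholesterol synthesis genes, 39 fell in the nose, 45 in the bulb and 36 in both (all genes 26.4, 24.2 and 11.7 percent), with medians of -0.87 and -1.51. In this list 29 interactions were called with the bulb lower against 3 with the nose lower (all genes 15.0 and 20.5 percent). Of 57 genes of immature neurons and growth cones, 46 fell in the nose and 44 in the bulb, 38 in both (all genes 26.4, 24.2 and 11.7 percent). Interactions were called with the bulb lower in 17 of them and with the nose lower in 13 (all genes 15.0 and 20.5 percent), the second share near that of all genes. The neuronal tubulin gene tubb2b.S was at 427, 317 and 363 CPM in control noses and 186, 169 and 143 CPM in 1-week noses. Bulb levels were 3464, 3734 and 2922 CPM in control bulbs and 787, 706 and 601 CPM in 1-week bulbs. The interaction of tubb2b.S was 1.12 ± 0.21 (0.000959), with the bulb lower. The growth cone gene gap43.L fell by 0.53 ± 0.095 and 0.80 ± 0.095 log2 and its interaction was not called (0.27 ± 0.13, 0.135), except with libraries scaled within each tissue (0.37, 0.0366), with the homeologs summed (0.47, 0.00701) and without 1-week nose library 2 (0.40, 0.0343). The neurogenic factor sox11.L changed by -0.58 ± 0.08 and -1.35 ± 0.08.

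Ribosomal protein genes rose in both tissues, 72 of 91 in the nose and 89 in the bulb (all genes 21.4 and 28.7 percent). Their medians were 0.74 and 0.93 log2, and 1 interaction was called, that of rps21.L. The rps21.L bulbs were at 3.29, 4.71 and 8.94 CPM in control bulbs and 60.3, 78.5 and 85.7 CPM in 1-week bulbs (3.73 ± 0.47), with 0.44 ± 0.42 in the nose (not called). With its homeologs summed the interaction was -0.72 and not called (0.136). Of 89 nuclear genes of the respiratory chain, 34 fell and 2 rose in the nose (all genes 26.4 and 21.4 percent). In the bulb 46 of them fell and 3 rose (all genes 24.2 and 28.7 percent). Without control nose library 1, 25 of them fell in the nose and 68 in the bulb. In that setting 27 of their interactions were called with the nose above and 2 below, against 5 and 4 with all libraries (all genes 15.0 and 20.5 percent with all libraries). Of all 33668 genes in that setting, 9156 fell in the nose and 9818 in the bulb. Interactions were then called in 6046 of all genes with the nose above and 6933 below. Of 76 chaperone genes, 38 fell and 5 rose in the nose and 55 fell and 3 rose in the bulb (all genes 26.4 and 21.4 percent in the nose, 24.2 and 28.7 percent in the bulb).

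Phagocyte genes rose in both tissues, and more interactions had the larger factor in the bulb. The microglial receptor gene trem2.S was at 3.75, 4.35 and 6.67 CPM in control noses and 21.1, 17.6 and 17.0 CPM in 1-week noses. Bulb levels were 1.62, 1.69 and 1.62 CPM in control bulbs and 6.63, 5.88 and 7.36 CPM in 1-week bulbs. Its groups did not overlap in either tissue, and its changes of 1.91 ± 0.18 and 2.01 ± 0.19 gave an interaction of -0.10 ± 0.26 that was not called (0.793). The lipid carrier apoe.L, released by glia and phagocytes, was at 38.6, 24.0 and 29.6 CPM in control noses and 124, 96.4 and 102 CPM in 1-week noses. Bulb levels were 3.83, 4.05 and 4.71 CPM in control bulbs and 54.0, 47.9 and 56.8 CPM in 1-week bulbs. Its interaction was called (-1.85 ± 0.22, 3.59e-05), with the larger factor in the bulb and the higher level in the nose. The homeolog apoe.S changed by -0.44 ± 0.16 in the nose and 0.56 ± 0.15 in the bulb, but the nose call was lost without control nose library 2 or 1-week nose library 2 or 3, and both calls in the model of 24 libraries. Summed with apoe.L, the nose value was 0.71.

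The phagocyte protease gene ctss.S changed by 0.71 ± 0.12 and 1.97 ± 0.12, and the complement gene c1qa.L by 0.89 ± 0.12 and 1.63 ± 0.13. The pan-leukocyte gene ptprc.S, which encodes the phosphatase CD45, rose in the bulb alone, at 0.823, 1.02 and 1.06 CPM in control bulbs and 5.27, 5.87 and 7.27 CPM in 1-week bulbs. Nose levels were 12.7, 11.5 and 12.4 CPM in control noses and 11.5, 13.4 and 16.5 CPM in 1-week noses. Of 74 phagocyte and microglia genes, 40 rose and 4 fell in the nose, and 56 rose and 5 fell in the bulb (all genes 21.4 and 26.4 percent, 28.7 and 24.2 percent). The interaction was called for 34 members with the nose below and 4 above (all genes 20.5 and 15.0 percent). Complement genes rose in 17 and 16 of 29 cases, with 7 interactions called with the nose above and 8 below (all genes 15.0 and 20.5 percent). With libraries scaled within each tissue, these were 8 and 5.

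Among genes with large shared rises by the smaller of their changes were faah.3.L, which degrades fatty acid amides (3.19 ± 0.39 in the nose and 3.32 ± 0.43 in the bulb), and the complement gene c4a.L (2.75 ± 0.23 and 3.89 ± 0.26). Others were the secreted stress hormone gene stc2.L (3.51 ± 0.32 and 2.66 ± 0.31) and dbh.L, which makes noradrenaline from dopamine (2.20 ± 0.22 and 2.48 ± 0.22). The gene stc2.L was at 4.46, 6.96 and 4.82 CPM in control noses and 49.5, 59.0 and 76.9 CPM in 1-week noses. Bulb levels were 3.47, 3.78 and 1.64 CPM in control bulbs and 15.5, 17.8 and 23.4 CPM in 1-week bulbs. The interaction was not called for faah.3.L, stc2.L and dbh.L (adjusted p = 0.889, 0.143 and 0.503), which does not show that the tissues changed alike. Without control bulb library 3 that of stc2.L was called (1.13, 0.0162). The central myelin gene mbp.L was called in neither tissue (0.12 ± 0.16 and -0.026 ± 0.16). Among genes called in both tissues with the same sign and a called interaction, the bulb change was the larger in 1513 and the nose change in 749.

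**Figure D4:**
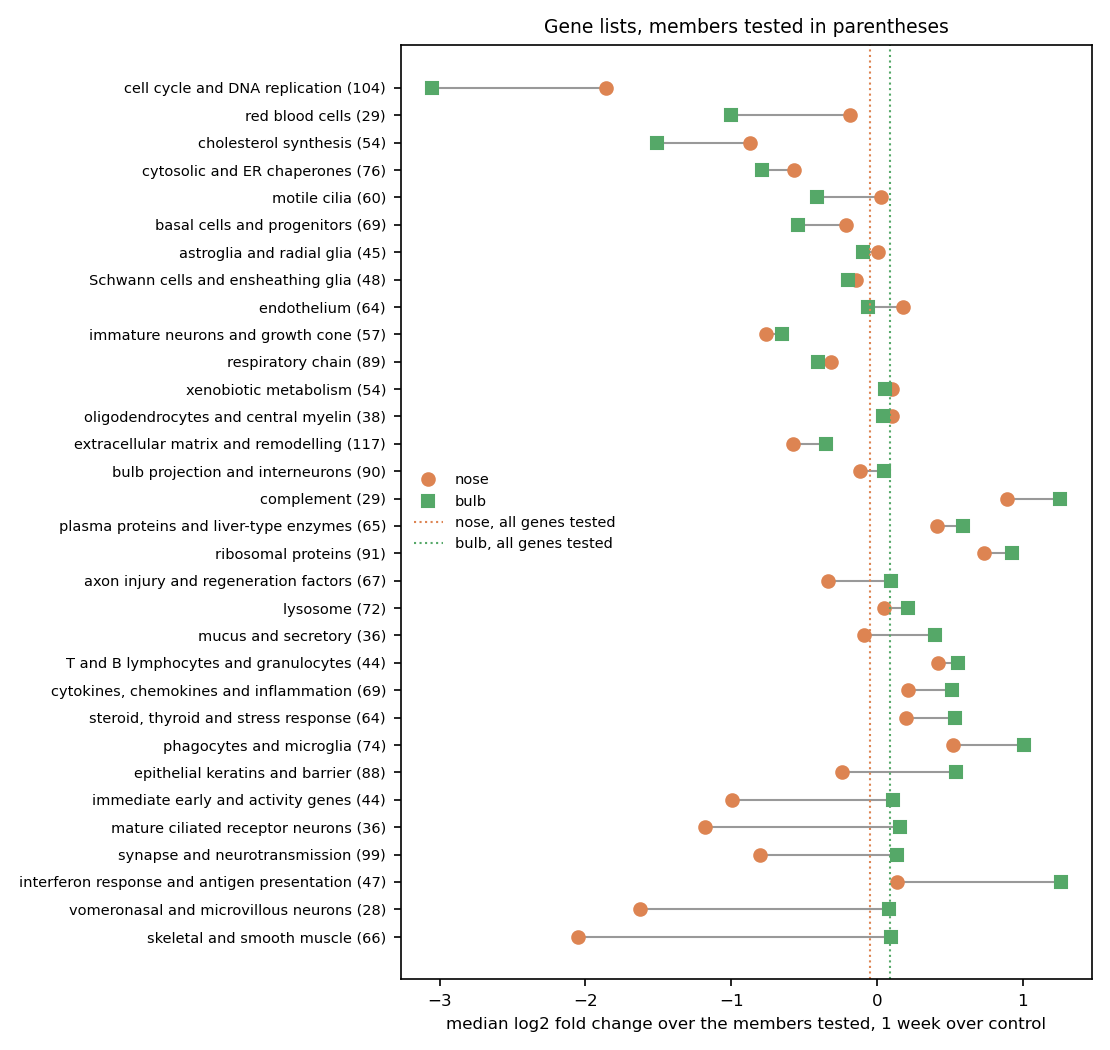
Median log2 fold change at 1 week over the tested members of each gene list shown, all of at least 20 members, in the nose (circles) and the bulb (squares), with all genes tested as dotted lines and the number of members in parentheses. Cell cycle genes lie lowest in the bulb at -3.05 and interferon genes highest at 1.26, while receptor neuron, synapse and muscle lists lie low in the nose, the muscle list at -0.022 when control nose library 1 is left out.

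To see whether 1 week differs from other times, the interaction was compared with that at 2 days and at 7 weeks after transection. This used 1 model of 24 libraries, where the control groups cancel. The controls are the same for all times, and no control is labelled with a time. Changes with the age of the larvae thus cannot be told apart from changes with time since the cut. Against 2 days, 563 of 34508 genes differed (1.63 percent), and against 7 weeks 5724 did (16.6 percent). The first count fell to between 246 (without 2-day bulb library 3) and 474 when 1 of the 12 libraries at 2 days and 1 week was left out, and the control and 7-week libraries were not left out for it. In that model the interaction of gng13.L was -1.0 ± 0.33 at 2 days, -3.24 ± 0.34 at 1 week and -0.40 ± 0.33 at 7 weeks, and 1 week was lower than 2 days (difference -2.24 ± 0.34, adjusted p = 0.00126) and than 7 weeks (-2.84 ± 0.34, 1.49e-05). For scg2.S the values were -1.57 ± 0.32, -3.19 ± 0.33 and -1.26 ± 0.32, and both differences were called (0.0104 and 0.000393).

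The gap for rab3a.S was -1.55 ± 0.25, -2.32 ± 0.25 and -0.49 ± 0.25, and only its difference from 7 weeks was called among these (5.83e-05, against 0.136 for 2 days). Of 99 synaptic genes, 44 had a lower interaction at 1 week than at 7 weeks (background 9.38 percent lower and 7.20 percent higher), and 7 a lower one than at 2 days (background 0.826 percent). The bulb neuron list had 40 of 90 members lower at 1 week than at 7 weeks. Among genes higher in the nose, mpp2.S was at 1.34 ± 0.28, 4.05 ± 0.28 and 5.06 ± 0.28 at the 3 times and pfkfb3.S at 1.47 ± 0.46, 3.81 ± 0.47 and 5.53 ± 0.49. Both were above 2 days and below 7 weeks at 1 week (adjusted p = 1.35e-05 and 0.00901 for mpp2.S, 0.0122 and 0.015 for pfkfb3.S). The gap of pltp.L was widest at 1 week (2.71 ± 0.21, 3.76 ± 0.21 and 2.19 ± 0.21), as was that of ccna2.L (1.31 ± 0.37, 3.55 ± 0.41 and 2.08 ± 0.43), with all 4 differences called.

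For the contractile gene tagln.L the gap was 3.36 ± 0.60, 4.47 ± 0.63 and 4.58 ± 0.61, and neither difference in time was called. The same held for krt12.L (-5.22 ± 0.66, -3.48 ± 0.64 and -4.21 ± 0.64) and for parp9.L (-2.87 ± 0.65, -2.20 ± 0.65 and -3.34 ± 0.65). Of the interferon list 11 members, and of the cholesterol list 11, had a higher interaction at 1 week than at 2 days (background 0.806 percent). For umodl1.L the gap was -3.26 ± 0.37, -5.95 ± 0.38 and -3.88 ± 0.37, deepest at 1 week by both tests (0.000568 and 0.000428).

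**Figure D5:**
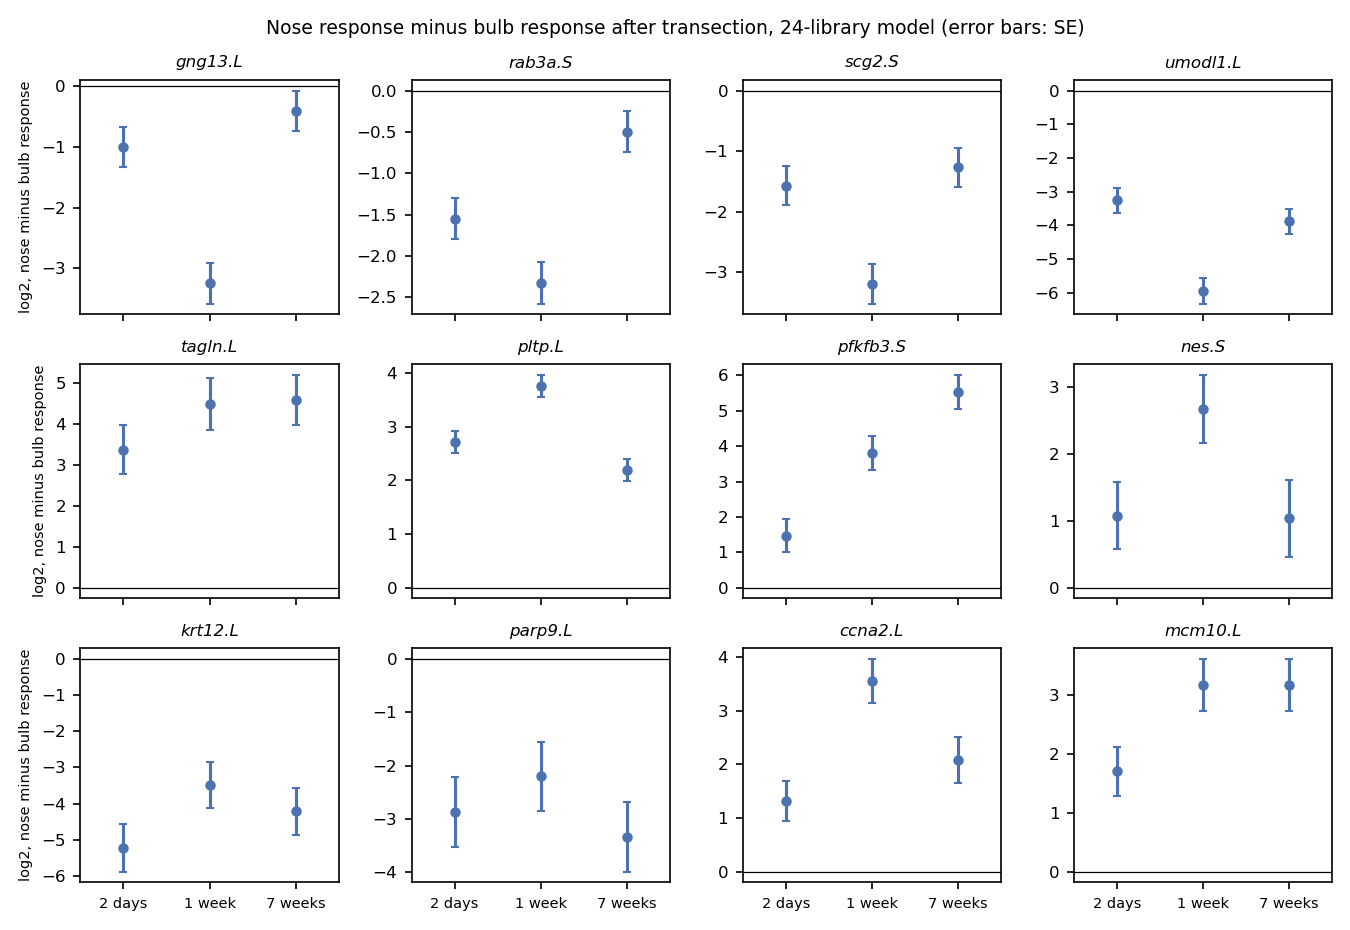
Nose change minus bulb change (log2) of 12 genes at 2 days, 1 week and 7 weeks after transection, from the 24-library model, with bars of 1 SE. The values at the 3 times share the same control libraries, and those of gng13.L run from -1.0 at 2 days to -3.24 at 1 week and -0.40 at 7 weeks.

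Homeologous copies gave a second reading of each gene from the same libraries, without being independent of it. Of 8669 pairs with both copies tested, both interactions were called in 1876, and 1715 of these pairs had the same sign. Of 549 pairs whose .L copy was in the opposite class, the .S copy was in it with the same direction in 118, acta2, tagln and scg2 among them. A fall in the nose alone was found in both copies of 205 pairs and a rise in the bulb alone in both copies of 116.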

How the data were processed

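Raw counts per gene (37240 entries) were deposited by the authors. Per the submitters' processing notes, bcl2fastq 2.17.1.14, STAR 2.5 and featureCounts of Subread 1.5.0 were used. Genome build, annotation and strand setting: not given in the sources used here. After 17 repeated entries were dropped, 37223 genes were kept, and 1 blank line was skipped. Column names match groups, not single titles, so each library was mapped only to its group, and library numbers are those in the column names.

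Counts were fitted in R 4.3.3 with edgeR 4.0.16 (TMM factors, filterByExpr with minimum count 10 and total 15, robust quasi-likelihood test) in 1 model of 4 groups, with contrasts for nose, bulb and their difference, and the Benjamini-Hochberg adjustment over all genes of a contrast. Values after ± are standard errors, computed from each F statistic, except where SD is written. CPM use TMM-scaled library sizes. Times were compared in a model of 24 libraries. The scripts were tested on simulated data.

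The libraries, lists and rules were chosen with earlier results of these data known. Named genes are, per class and direction, up to 5 symbols of largest interaction (for shared changes, of the larger smaller change) with at least 5 CPM and libraries that do not overlap, whose class held when each library was left out, up to 4 members of each of 34 lists by interaction p, and fixed markers with their homeologs. Of the named genes, the text shows a part, and some results are not reported here. Alternatives were other size factors, the DESeq2 1.42.0 Wald test, limma-voom, other filters and thresholds, 24 libraries, summed homeologs, replicate numbers as a block and leaving out each library.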

Additional observations from a re-analysis of the deposited data

Results flagged for a closer look

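Opposite changes in nose and bulb were picked out because the interaction, a test of the difference itself, was called together with calls of different sign in each tissue. This held for 1738 genes. The named examples with the nose above the bulb were pfkfb3.S (interaction 3.80 log2), pltp.L (3.75), acta2.S (3.53), acta2.L (3.03) and hpd-like.1.L (2.47). Those with the nose below the bulb were clec3b.L (-4.44), tgm5.L (-4.43), stk32a.L (-3.89), rbp4l.S (-3.24) and scg2.S (-3.20). The number depends on the model, as given under the processing.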

How the results depend on the processing

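The counts of genes called for the interaction, the nose and the bulb stayed within 1.5 times under each alternative run for them, and the classes held less well. In the model of 24 libraries, 352 genes were higher in the nose and lower in the bulb and 578 the reverse. With homeologs summed, so that fewer genes were tested, there were 1456 bulb-only higher, 2672 shared higher and 617 opposite genes with the nose lower. At an adjusted p under 0.01 there were 704 nose-only higher, 2565 shared lower, and 269 and 544 opposite genes with the nose higher and lower. In another setting, each call needed an adjusted p under 0.05 and a log2 change of at least 1. A tissue counted as not called could then hold a smaller change. The classes held 294 nose-only higher, 1488 and 835 bulb-only higher and lower, and 968 and 705 shared higher and lower genes. Opposite genes were 38 with the nose higher and 159 with it lower. Leaving out 1 library gave 9848 to 12979 genes for the interaction, 13717 to 16293 for the nose and 15038 to 18675 for the bulb. By class it gave 983 to 1310 and 1884 to 2241 nose-only higher and lower, 1756 to 2392 and 1642 to 2768 bulb-only, 3159 to 4239 and 3404 to 4930 shared, and 460 to 783 and 805 to 1120 opposite genes. The contrast of 1 week with 7 weeks gave 4317 to 6782 genes and that with 2 days 246 to 474, a loss of over 1.5 times without 2-day nose library 1 or 2, 1-week nose library 1 or 3, 2-day bulb library 1 or 3, or any 1-week bulb. With homeologs summed, values turned for apoe.S in the nose (0.71), pltp.L in the bulb (0.57), slc1a2.L in the bulb (0.60) and uprt.S in the interaction, nose and bulb (0.54, -0.64 and -1.18), a sum of both copies by construction. Over the 87 genes printed, 5209 of 5283 values kept direction and call, 51 lost a call, 17 gained one and 6 turned, and the cause was not tested. Genes named by class had been required to hold it with each library left out, so part of this stability was set by the selection. Of all 1738 opposite genes, 907 stayed in that class in the model of 24 libraries and 1163 without 1-week nose library 3. Depth limits the values of genes near 1 CPM.

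With the numbers in the column names as a replicate block, 10474 genes were called for the interaction and the call of sds.S was lost. The labels do not say that these numbers pair noses with bulbs, and deviations of same-numbered libraries correlated at -0.0608 to 0.123, so they were not read as pairs.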

Other observations

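Some further gene groups are given by their counts, against a background of 21.4 percent higher and 26.4 percent lower among all genes in the nose and 28.7 and 24.2 percent in the bulb. For interactions the background was 15.0 percent with the nose above and 20.5 percent with it below. Of 117 genes of the extracellular matrix and its remodelling, 18 rose and 61 fell in the nose, 26 rose and 50 fell in the bulb, and 30 interactions were called with the nose above and 33 below. The median of this list was -0.58 log2 in the nose and -0.35 in the bulb. Among 72 lysosome genes, which serve the breakdown of engulfed material, the bulb had 30 higher and 14 lower and the nose 18 and 15, with 29 interactions called with the nose below and 12 above. Schwann cell and ensheathing glia genes, from the cells that wrap peripheral axons, fell in 17 and rose in 7 of 48 cases in the nose, and fell in 16 and rose in 4 in the bulb. Cytokine and inflammation genes numbered 22 higher and 6 lower of 69 in the nose and 26 and 6 in the bulb, and without control nose library 1 the nose counts were 16 and 12. Axon injury and regeneration factors numbered 10 higher and 20 lower of 67 in the nose and 13 and 16 in the bulb. Their nose counts were 9 and 29 when control nose library 1 was left out. In that setting 14 interactions were called with the nose above and 26 below, against 13 and 15 with all libraries. Lymphocyte and granulocyte genes numbered 12 higher and 1 lower of 44 in the nose and 19 and 7 in the bulb. Genes of plasma proteins and liver-type enzymes numbered 27 higher and 6 lower of 65 in the nose and 24 and 5 in the bulb. Mucus and secretory genes numbered 8 higher and 6 lower of 36 in the nose and 11 and 8 in the bulb. Xenobiotic metabolism genes numbered 15 higher and 11 lower of 54 in the nose and 18 and 15 in the bulb. Oligodendrocyte and myelin genes numbered 9 higher and 6 lower of 38 in the nose and 10 and 6 in the bulb. Bulb neuron genes numbered 24 higher and 32 lower of 90 in the nose and 17 and 17 in the bulb. With libraries scaled within each tissue, the bulb counts were 16 higher and 17 lower for xenobiotic genes and 15 and 20 for bulb neuron genes. Without control nose library 1, the nose counts were 6 higher and 7 lower for mucus genes, 6 and 7 for oligodendrocyte genes and 9 and 2 for lymphocyte genes.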
